A study of Mus musculus with 6 samples.

Results

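The nuclear genes for subunits of the mitochondrial respiratory chain and ATP synthase were described in colon macrophages of mice with colitis, with and without gasdermin D. Members were all genes of the deposited tables whose symbol begins with Nduf followed by a, b, c, s or v and a digit (complex I), is Sdha, Sdhb, Sdhc or Sdhd (complex II), or begins with Uqcr (complex III), Cox and a digit from 4 to 8 (complex IV) or Atp5 (complex V), leaving out the assembly factor symbols Ndufaf and Sdhaf. That gave 84 of 17067 genes, with 40 in complex I, 4 in complex II, 8 in complex III, 15 in complex IV and 17 in complex V. The rule used symbols and no measured value. Subunits encoded in mitochondrial DNA were not analysed here.

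RNA was sequenced on the BGISEQ-500 from CD45+CD11b+F4/80+ cells sorted out of the colon. There were 3 samples from Gsdmd-/- mice and 3 from wild-type (WT) mice, all C57BL/6, 10 weeks old and given dextran sulfate sodium (DSS), a polymer that injures the colon lining, so both groups carry colitis and no untreated animal is included. The Gsdmd-/- label names no cell type, so the loss was not labelled as limited to macrophages, and nothing in the labels says whether a sample is 1 mouse or a pool. The p-values below therefore rest on sample-to-sample spread alone, and that spread may be technical. The deposited values carry no named unit and were read as FPKM, fragments per kilobase of transcript scaled to the mapped fragments of the sample. In bulk RNA, fewer cells of a type and less RNA per cell cannot be told apart.

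The respiratory chain carries electrons from NADH through complex I, and from succinate through complex II, to ubiquinone, then through complex III and cytochrome c to complex IV, which passes them to oxygen. Complexes I, III and IV pump protons across the inner membrane, and ATP synthase, complex V, lets them back to make ATP. Each complex has a few subunits that bind the redox cofactors or the nucleotides and, except for complex II, many small accessory subunits around them. In macrophages the balance between this chain and glycolysis is known to move with inflammatory activation.

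Promoter sequence was matched by gene ID for 67 of the 84 members from RefSeq (GRCm38.p6, 250 bases before to 50 after a gene's start), because the members are known as targets of shared regulators. The letters GCATGCGC of a site of nuclear respiratory factor 1 (NRF1) stood in 10 of the 67 (14.9%), against 4.94% of the 13375 genes of the tables with a promoter. The ETS site of GABPA, CCGGAAG, stood in 16 (23.9%) against 16.3%, and the YY1 site AAGATGGC in 10 (14.9%) against 4.34%, each searched for exact matches on both strands. In 5 members the NRF1 letters matched on both strands at 1 place, in overlapping fashion. Of these 5, Atp5k of complex V, Cox6a1 of complex IV, Uqcrc1 of complex III and Ndufa11 of complex I are shown, 5′ to 3′ along the gene, since they put the same letters in 4 of the complexes. Capitals mark matches to any of the 3 motifs.
Atp5k, chr5:108434350-108434649, minus strand: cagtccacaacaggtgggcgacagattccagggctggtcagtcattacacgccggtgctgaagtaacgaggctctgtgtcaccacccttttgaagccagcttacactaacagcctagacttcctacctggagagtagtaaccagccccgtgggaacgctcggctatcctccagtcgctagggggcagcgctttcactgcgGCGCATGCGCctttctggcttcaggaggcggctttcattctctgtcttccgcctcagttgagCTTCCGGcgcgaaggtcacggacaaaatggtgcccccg
Cox6a1, chr5:115348909-115349208, minus strand: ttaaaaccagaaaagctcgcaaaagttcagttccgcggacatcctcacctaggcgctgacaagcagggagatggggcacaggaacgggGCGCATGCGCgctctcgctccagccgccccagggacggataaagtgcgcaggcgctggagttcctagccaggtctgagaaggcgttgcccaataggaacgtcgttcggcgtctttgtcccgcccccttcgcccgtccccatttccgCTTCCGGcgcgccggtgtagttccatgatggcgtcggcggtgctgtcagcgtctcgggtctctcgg
Uqcrc1, chr9:108936398-108936697, plus strand: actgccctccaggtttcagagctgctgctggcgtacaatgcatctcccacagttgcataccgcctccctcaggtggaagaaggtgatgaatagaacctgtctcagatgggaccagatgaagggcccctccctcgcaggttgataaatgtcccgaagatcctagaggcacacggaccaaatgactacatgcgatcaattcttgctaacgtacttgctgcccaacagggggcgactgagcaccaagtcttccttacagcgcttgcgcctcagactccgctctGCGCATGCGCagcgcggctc
Ndufa11, chr17:56717512-56717811, plus strand: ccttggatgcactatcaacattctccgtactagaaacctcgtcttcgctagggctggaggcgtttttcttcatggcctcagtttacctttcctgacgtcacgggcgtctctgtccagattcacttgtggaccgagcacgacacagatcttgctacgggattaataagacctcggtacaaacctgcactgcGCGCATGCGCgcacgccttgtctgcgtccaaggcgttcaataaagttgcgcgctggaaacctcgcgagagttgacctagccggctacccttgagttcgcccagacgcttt
In Atp5k and Cox6a1 the NRF1 letters stand before the reverse complement of the ETS letters. A match is a description of the letters, not of binding.

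Gsdmd, the targeted gene, had 28.5, 29.0 and 29.7 FPKM in the Gsdmd-/- samples, against 97.7, 99.3 and 97.3 FPKM in the WT samples. Every Gsdmd-/- library was below every WT library (log2 change -1.72, SE 0.0326, adjusted p = 1.12e-11 in limma), and the labels do not say which exons the allele lacks. The 6 libraries held an estimated 19040000 to 19740000 fragments each, read from the steps between low values. Summed FPKM ran from 551502 to 565388 in Gsdmd-/- and from 476271 to 485411 in WT samples. The markers of the sort were present in both groups: Ptprc (CD45) had 56.6, 56.2 and 60.7 FPKM in the Gsdmd-/- samples, against 95.5, 87.0 and 94.8 FPKM in the WT samples, Itgam (CD11b) 90.6, 87.5 and 95.6 against 179, 173 and 177 FPKM, and Adgre1 (F4/80) 213, 212 and 222 against 295, 289.8 and 287 FPKM. All 3 were lower in every Gsdmd-/- sample. At an adjusted p under 0.05 in limma, 40.6% of all tested genes rose and 36.9% fell as deposited. After rescaling to a common total 25% rose and 51% fell. After removal of the length and GC trend described below 29.3% rose and 30.9% fell. Of the 10 macrophage markers 4 rose and 5 fell as deposited, whereas 3 rose and 7 fell after rescaling, and 1 rose and 8 fell after removal of the trend. Their sum was 9195 to 9297 FPKM in Gsdmd-/- and 8260.1 to 8779 FPKM in WT samples, most of it from Lyz2 (5469 FPKM in Gsdmd-/- and 5008 FPKM in WT) and Cd68 (1858 FPKM in Gsdmd-/- and 1477 FPKM in WT), which both fell with the trend removed (-0.11 and -0.075, adjusted p = 0.00102 and 0.0274). Cd68 rose after rescaling to a common total (0.11, adjusted p = 0.00223). It was not called when the trend was removed with lengths from all coding transcripts, a choice described below (0.037, adjusted p = 0.259).

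Of the 84 members, 80 reached 1 FPKM in at least 3 of 6 samples and were tested with limma across all 10005 such genes. In Gsdmd-/- macrophages 75 members rose and 1 fell, beside 40.6% of all tested genes that rose and 36.9% that fell (adjusted p under 0.05). The median log2 change was 0.58 over the members and 0.03 over all tested genes, on the scale of log2(FPKM + 1), Gsdmd-/- minus WT. For 75 members every Gsdmd-/- sample lay above every WT sample, which held for 41.2% of all tested genes. The median member had 1.51 times its WT mean, with a median spread within groups of 3.78% in Gsdmd-/- and 3.29% in WT samples (coefficient of variation, n = 3 each). Summed over all 84 members, the samples held 9565, 9552 and 9140.0 FPKM in Gsdmd-/-, against 6289, 6459.9 and 6358 FPKM in WT, or 1.66% to 1.70% against 1.32% to 1.33% of each sample's total.

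Short transcripts dominate this group, and the change between the groups of samples followed transcript length and GC content in all genes. Among tested genes of the whole tables the Spearman correlation of the log2 change was -0.65 with transcript length and 0.50 with GC content (across 9852 genes that share the same libraries, given as a description). The median member transcript had 763 bases, against 2789 over all tested genes. Of all tested genes with transcripts of up to 1000 bases, 629 of 704 rose (89.3%, median log2 change 0.55). Of members that short, 51 of 51 rose, with a median of 0.63. Among the 28 members with longer transcripts 23 rose and 1 fell (median 0.41), and among the 14 over 1500 bases 11 rose and 1 fell (median 0.27), where 31.4% of all tested genes over 1500 bases rose (median -0.07). The members' medians were thus above those of all tested genes in both length ranges, and close to them in the short one. Neither range is matched for length. In the range up to 1000 bases members had a median of 618 bases, against 788 over all tested genes. In the range over 1500 bases members had a median of 1906 bases, against 3172 over all tested genes. With the trend removed as described below, 7 of the 14 members over 1500 bases rose and 2 fell (median 0.11). Of the 8101 tested genes in that range 2396 rose and 2631 fell (median -0.0086). Of the 51 members of up to 1000 bases 15 rose and 7 fell with the trend removed (median 0.043). Of the 704 tested genes that short 204 rose and 151 fell (median 0.017).

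A second set of values was therefore computed with a smooth trend on transcript length and GC, fitted in each sample across all genes, removed. On it 31 members rose and 11 fell of 79 tested, beside 29.3% of all tested genes that rose and 30.9% that fell, and the median member change was 0.05. The result depended on which annotated length was used. With the median length of every coding transcript of a gene in place of the RefSeq-linked ones, a choice made after seeing the data, 67 members rose and 3 fell (34.8% and 32.5% of all tested genes) with a median of 0.30. After rescaling each sample to a common total (TPM), which moved the median of all genes to -0.17, 67 members rose and 5 fell, beside 25% and 51% of all tested genes, with a member median of 0.37. In the fit as deposited and all 19 alternatives, 25 members rose every time: 15 in complex I, 2 in complex III, 2 in complex IV, 6 in complex V and 0 in complex II. The share of all tested genes that rose in every one of these fits was not computed, so this count has no background beside it.

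**Figure D1:**
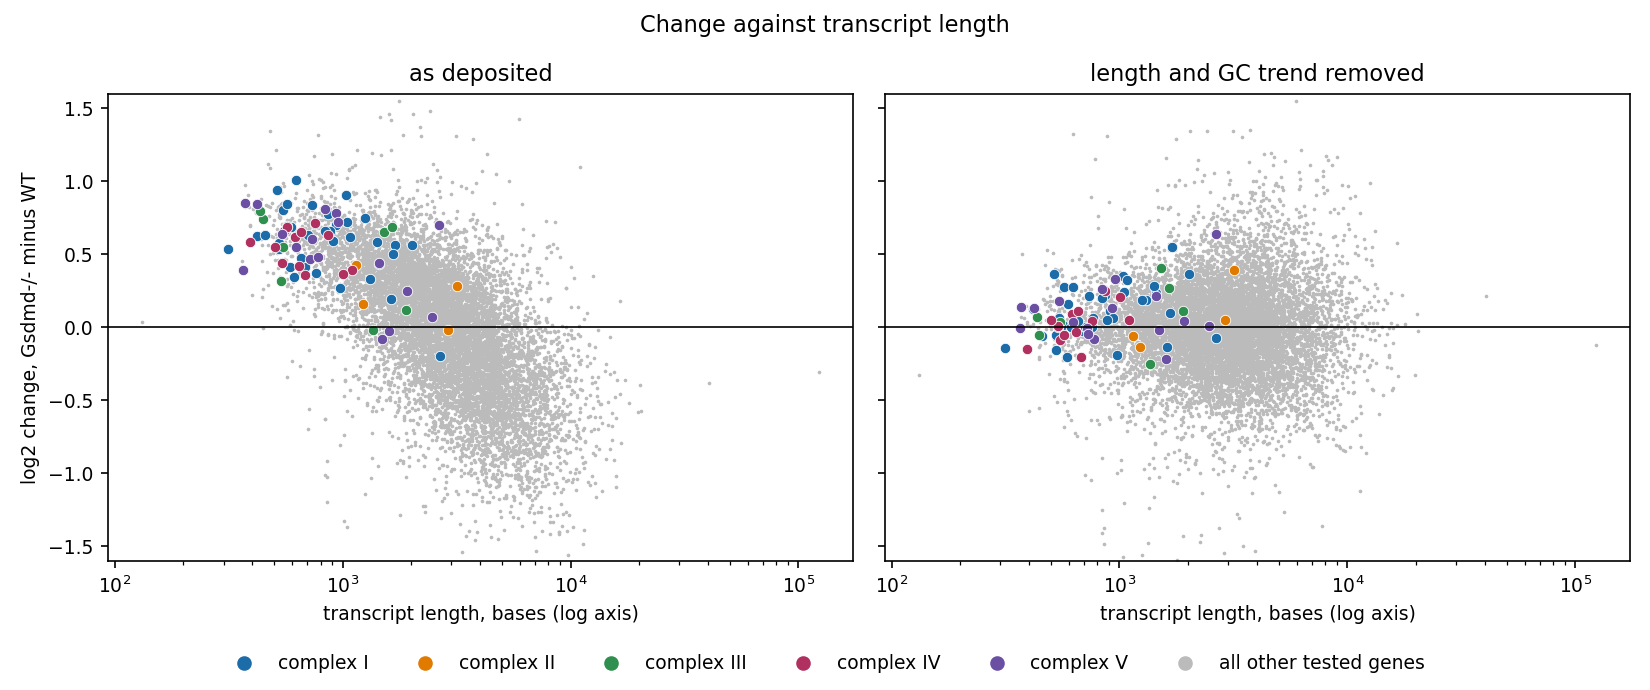
Each point is a tested gene, with its transcript length in bases on a log axis and its log2 change (Gsdmd-/- minus WT) on the vertical axis, as deposited on the left and after removal of the length and GC trend on the right. Members are coloured by complex and other genes are grey, and points beyond 1.6 in either direction are not drawn. As deposited the members lie in the upper left, in the range of other short transcripts, and with the trend removed they lie around 0 with a median of 0.05.

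**Figure D2:**
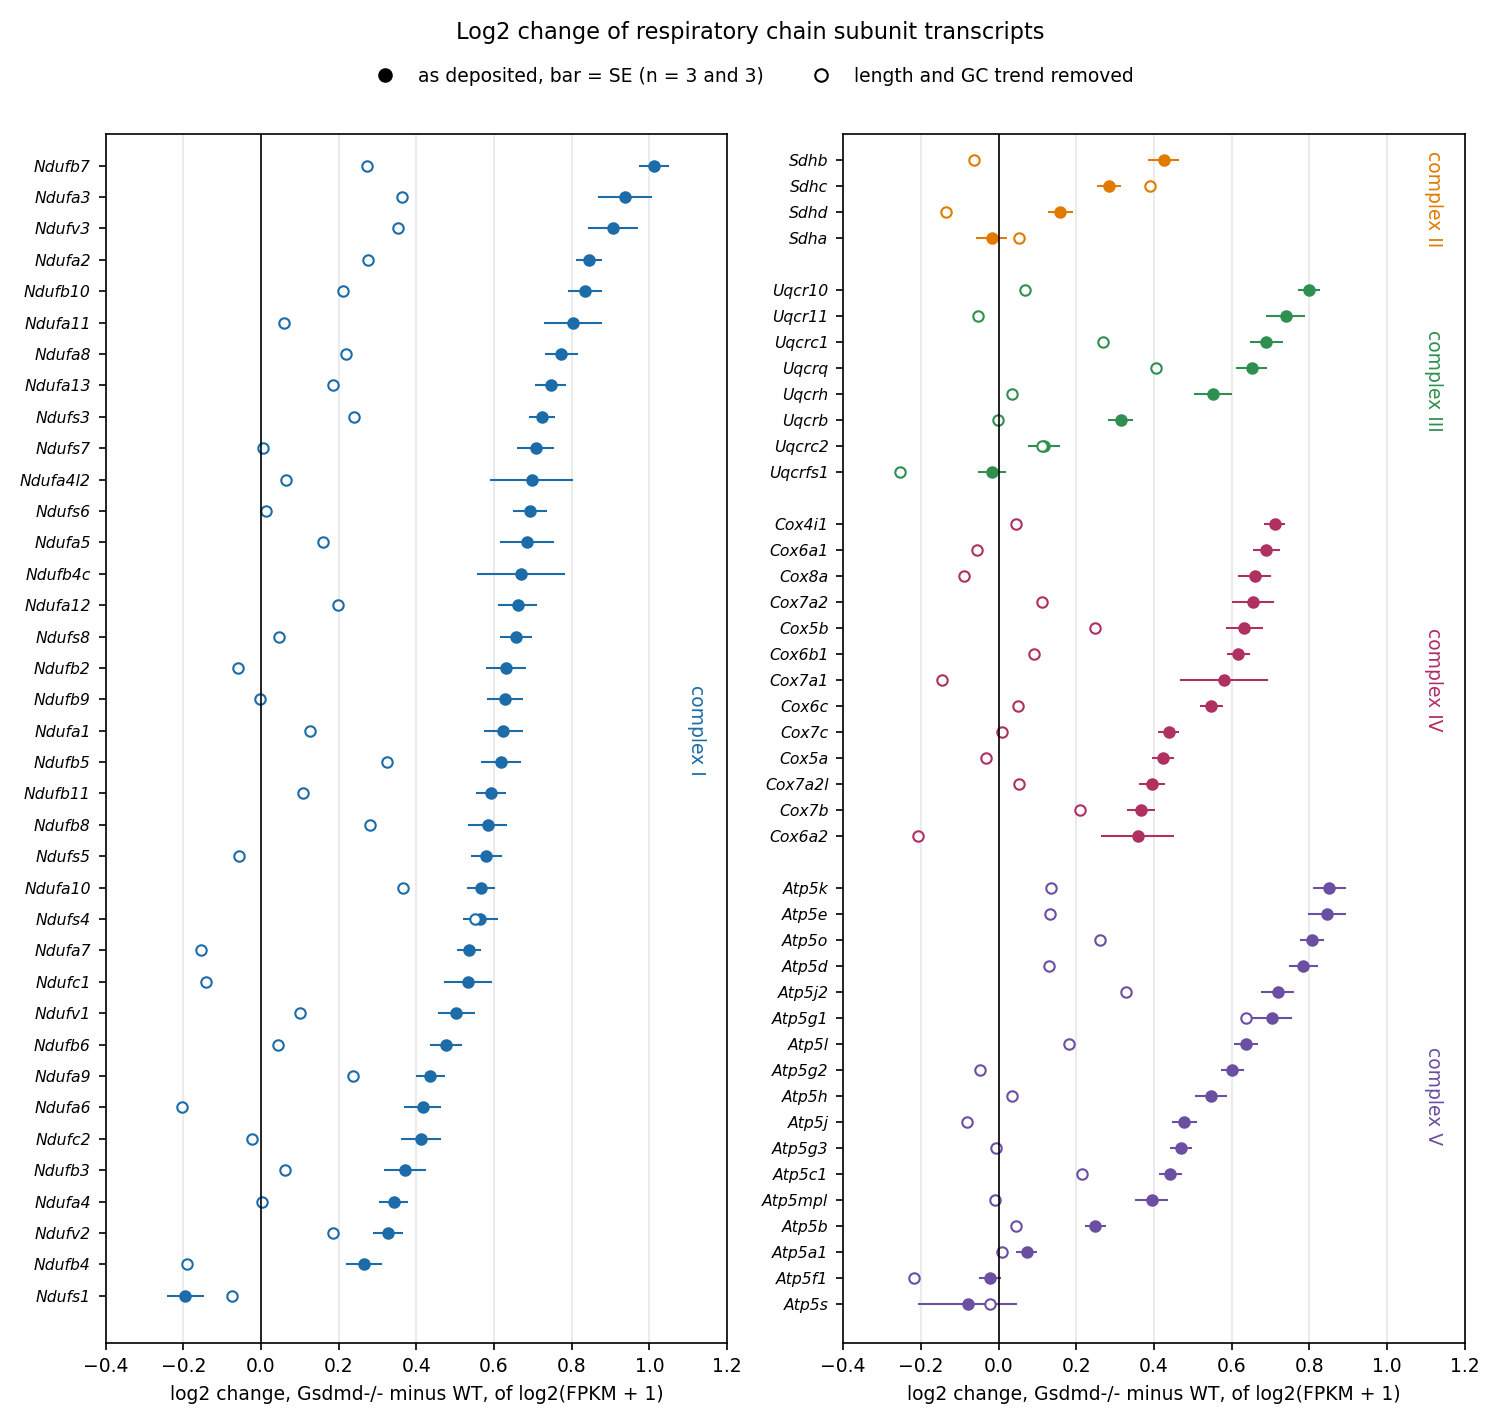
Each row is 1 of 79 tested members, ordered within its complex by log2 change as deposited (filled points, with the SE of the limma fit, 3 samples a group) and with the value after removal of the length and GC trend as an open point. Filled points run from -0.19 (Ndufs1) to 1.01 (Ndufb7), and open points lie to the left of most filled ones. Ndufs4 and Uqcrc2 are nearly unmoved, and the open points of Sdhc, Ndufs1, Sdha and Atp5s lie to the right.

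Beside the counts given for each complex from here on, 40.6% of all tested genes rose and 36.9% fell as deposited. The shares were 29.3% and 30.9% once the trend was removed. Complex I, the NADH dehydrogenase, rose nearly throughout as deposited. Of its 38 tested members 37 rose and 1 fell, with a median log2 change of 0.62, and all 38 had groups that did not overlap, beside 79.4% of all tested genes with no overlap in either direction. In the accessory subunits 31 of 31 tested members rose (median 0.62), and of the 7 core subunits that carry the flavin, the iron-sulfur clusters or the quinone site 6 rose and 1 fell (median 0.50). With the trend removed, 15 accessory members rose and 4 fell of 30 (median 0.12), and 2 core members rose and 1 fell of 7 (median 0.047). The median transcript had 693.5 bases among accessory and 1312 bases among core members. No test of accessory against core members was made.

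Ndufb7, an accessory subunit of the membrane arm, had 133, 131 and 126 FPKM in the Gsdmd-/- samples, against 63.2, 67.8 and 61.4 FPKM in the WT samples. No Gsdmd-/- sample came near the WT range, and the means were 130.2 ± 3.71 FPKM in Gsdmd-/- and 64.1 ± 3.27 FPKM in WT macrophages (SD, n = 3 each), a difference of 1.01 on the log2 scale (SE 0.0392, adjusted p = 1.62e-09). Ndufa3, a small membrane subunit, had 155, 160.5 and 139 FPKM in the Gsdmd-/- samples, against 71.9, 78.8 and 85.8 FPKM in the WT samples. Its groups did not overlap, with more spread than for Ndufb7 (log2 change 0.94, SE 0.0693, adjusted p = 2.02e-06). Ndufv3, an accessory subunit at the NADH-binding end, had 106, 101.25 and 87.8 FPKM in the Gsdmd-/- samples, against 52.2, 54.4 and 49.1 FPKM in the WT samples (log2 change 0.91, SE 0.0645, adjusted p = 4.95e-07). Ndufa2, of the same end of the enzyme, had 73.1, 74.5 and 71.0 FPKM in the Gsdmd-/- samples, against 40.8, 39.7 and 39.9 FPKM in the WT samples (log2 change 0.84, SE 0.0332, adjusted p = 1.77e-09). These 4 also passed with the trend removed, with log2 changes of 0.27, 0.36, 0.35 and 0.28, and were among the 25 that rose in every alternative.

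Core subunits differed among themselves. Ndufs1, the largest subunit and the carrier of several iron-sulfur clusters, was the only member that fell as deposited, with 13.7, 13.2 and 14.3 FPKM in the Gsdmd-/- samples, against 16.2, 16.0 and 15.3 FPKM in the WT samples (log2 change -0.19, SE 0.0473, adjusted p = 0.00252). It lay below WT in every sample, and did not pass with the trend removed (log2 change -0.075, adjusted p = 0.159). With lengths from all coding transcripts its trend-removed value was -0.37 (adjusted p = 3.25e-05), with a length of 651 bases in place of 2661, and in TPM it was -0.42 (adjusted p = 5.80e-06). Ndufv1, which binds the flavin and takes electrons from NADH, had 30.1, 28.0 and 28.7 FPKM in the Gsdmd-/- samples, against 21.4, 19.1 and 19.9 FPKM in the WT samples (log2 change 0.50, SE 0.0483, adjusted p = 1.42e-06), and 0.10 with the trend removed (adjusted p = 0.12). Ndufs7 and Ndufs8, which pass electrons to the quinone, rose by 0.71 and 0.66, and did not pass with the trend removed (0.0051 and 0.047). The spread between core subunits of 1 enzyme thus ran from a fall in Ndufs1 to a rise of 0.72 in Ndufs3.

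With the trend removed, Ndufs4, an accessory subunit needed for a stable NADH-binding arm, had the largest value of complex I. It had 23.1, 25.2 and 24.8 FPKM in the Gsdmd-/- samples, against 16.2, 15.8 and 16.3 FPKM in the WT samples, and the groups did not overlap (log2 change 0.56 as deposited and 0.55 with the trend removed, adjusted p = 1.02e-06). Ndufa10 followed, with 60.9, 57.2 and 61.1 FPKM in the Gsdmd-/- samples, against 40.5, 39.4 and 40.2 FPKM in the WT samples (0.57 as deposited, 0.36 with the trend removed). In the other direction Ndufa6, Ndufa7, Ndufb4 and Ndufc1 rose as deposited, by 0.42, 0.54, 0.27 and 0.53, and fell with the trend removed, by 0.20, 0.15, 0.19 and 0.14. With lengths from all coding transcripts the fall was not found: Ndufa6, Ndufa7 and Ndufc1 rose (0.22, 0.15 and 0.41, adjusted p = 0.00389, 0.00272 and 6.13e-05), and Ndufb4 was not called (adjusted p = 0.999). Their RefSeq-linked transcripts had 590.0, 528, 971 and 315 bases.

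Ndufa4l2, a paralogue of Ndufa4 known as a hypoxia-induced gene, was near the floor, with 1.11, 1.73 and 1.05 FPKM in the Gsdmd-/- samples, against 0.320, 0.48 and 0.420 FPKM in the WT samples. It entered the test through the Gsdmd-/- samples alone, so its rise (log2 change 0.70, SE 0.108, adjusted p = 8.75e-05) was favoured by the filter. Ndufa4 itself, now assigned to complex IV in mammals and counted here by its symbol, averaged 192 ± 7.75 FPKM in Gsdmd-/- and 151 ± 6.05 FPKM in WT macrophages (SD, n = 3 each). Ndufb4c, at 36.5 FPKM in Gsdmd-/- and 22.8 FPKM in WT samples, is a near copy of Ndufb4: 38.3% of the 31-base words in Ndufb4 transcripts also occur in another gene, so reads of these genes may be shared and both values are uncertain. Ndufb4b was at 2.09, 0 and 0.740 FPKM in Gsdmd-/- and 0, 0 and 0.710 FPKM in WT samples, and Ndufa11b was at 0 in 5 of 6 samples. Neither was tested.

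Complex II, succinate dehydrogenase, had the smallest median change of the 5 complexes as deposited. Of 4 members 3 rose and 0 fell, with a median log2 change of 0.22. Its transcripts were also the longest, with a median of 2065.5 bases, against medians of 645 to 955 in the other complexes. With the trend removed its median change was -0.0053, against 0.044 to 0.10 in the others. Sdha, the flavoprotein that oxidises succinate, had 43.2, 41.1 and 41.1 FPKM in the Gsdmd-/- samples, against 42.1, 40.8 and 44.0 FPKM in the WT samples, and the groups overlapped (log2 change -0.018, SE 0.0393, adjusted p = 0.689). Sdhb, the iron-sulfur subunit, had 95.1, 98.6 and 88.0 FPKM in the Gsdmd-/- samples, against 70.8, 68.5 and 69.7 FPKM in the WT samples (log2 change 0.43, SE 0.0405, adjusted p = 1.31e-06). The membrane anchors Sdhc and Sdhd were also higher in every Gsdmd-/- sample. Sdhc had 129, 129.6 and 123 FPKM in the Gsdmd-/- samples, against 104, 104 and 105 FPKM in the WT samples (log2 change 0.28, SE 0.0301, adjusted p = 3.36e-06), and Sdhd had 51.0, 49.2 and 49.99 FPKM in the Gsdmd-/- samples, against 44.1, 44.9 and 45.2 FPKM in the WT samples (log2 change 0.16, SE 0.0331, adjusted p = 8.37e-04).

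On the other scales these 4 parted. With the trend removed Sdhc rose (0.39, adjusted p = 7.35e-07), Sdhd fell (-0.13, adjusted p = 0.00273), and Sdhb and Sdha did not pass (-0.063 and 0.053). The value of Sdhc rests on its annotated length of 3171 bases, and was -0.0011 with a length of 815 bases from all its coding transcripts. Sdhd was not called with that choice of lengths (0.031, adjusted p = 0.379). In TPM, Sdhb rose by 0.21 and Sdha fell by 0.24 on the log2 scale (adjusted p = 1.86e-04 and 1.41e-04). The summed level of the complex was 319, 319 and 302 FPKM in Gsdmd-/-, against 261, 258 and 264 FPKM in WT samples, 1.2 times as high on average, against 1.45 to 1.53 times for each of the other 4 complexes. No length or GC trend was removed from these sums.

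In complex III, the cytochrome bc1 complex, 7 of 8 members rose and 0 fell, with a median log2 change of 0.60. Uqcr10, one of its smallest subunits, had 152, 156 and 156 FPKM in the Gsdmd-/- samples, against 90.1, 86.8 and 89.1 FPKM in the WT samples (log2 change 0.80, SE 0.0288, adjusted p = 1.13e-09). Its samples hardly differed within a group. Uqcr11 and Uqcrq, also small subunits, rose by 0.74 and 0.65. Uqcrc1, a core protein on the matrix side, had 99.0, 100.5 and 99.1 FPKM in the Gsdmd-/- samples, against 57.8, 65.9 and 60.6 FPKM in the WT samples (log2 change 0.69, SE 0.0429, adjusted p = 3.75e-08). Its partner core protein Uqcrc2 had 40.4, 40.2 and 43.6 FPKM in the Gsdmd-/- samples, against 37.6, 37.4 and 39.1 FPKM in the WT samples. The groups of Uqcrc2 did not overlap but lay close, and its call (log2 change 0.12, SE 0.0410, adjusted p = 0.02) was lost without Gsdmd-/- replicate 3 (adjusted p = 0.0694), without WT replicate 1 (0.0560) and without WT replicate 2 (0.0559). Uqcrfs1, the Rieske iron-sulfur protein that passes electrons toward cytochrome c, had 41.0, 41.0 and 39.9 FPKM in the Gsdmd-/- samples, against 41.0, 42.2 and 40.2 FPKM in the WT samples, with overlapping groups (log2 change -0.017, SE 0.0352, adjusted p = 0.675).

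With the trend removed, 3 members of complex III rose and 1 fell. Uqcrq (0.41, adjusted p = 2.05e-06), Uqcrc1 (0.27, adjusted p = 3.96e-05) and Uqcrc2 (0.11, adjusted p = 0.0295) rose and Uqcrfs1 fell (-0.25, adjusted p = 2.86e-05), while Uqcr10 (0.067) and Uqcr11 (-0.053) did not pass. Uqcrq and Uqcrc1 rose and Uqcrfs1 fell with either choice of transcript length, and Uqcrc2 was not called with lengths from all coding transcripts (0.063, adjusted p = 0.184). Uqcrfs1 also fell in TPM (-0.24, adjusted p = 4.39e-05), and was not called after quantile normalization (-0.073, adjusted p = 0.0725). Cyc1, cytochrome c1, belongs to this complex but has a symbol outside the rule. It had 67.0, 67.6 and 65.4 FPKM in the Gsdmd-/- samples, against 49.0, 50.9 and 42.5 FPKM in the WT samples (log2 change 0.48, SE 0.0562, adjusted p = 1.13e-05), and 0.070 with the trend removed (adjusted p = 0.252).

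Every tested nuclear subunit of complex IV, cytochrome c oxidase, rose as deposited: 13 of 13, with log2 changes from 0.36 to 0.71 and a median of 0.58. Their transcripts had a median of 645 bases. Of all tested genes 40.6% rose, and of those with transcripts of up to 1000 bases 89.3% rose (median 0.55). The catalytic subunits of cytochrome c oxidase are encoded in mitochondrial DNA, so all 13 are structural or regulatory. Cox4i1, which takes part in the regulation of the enzyme by ATP, had 381, 386 and 377 FPKM in the Gsdmd-/- samples, against 227, 234 and 237 FPKM in the WT samples (log2 change 0.71, SE 0.0269, adjusted p = 1.43e-09). Cox6a1 had the highest level of any member, 517, 503 and 478 FPKM in the Gsdmd-/- samples, against 307, 322 and 299 FPKM in the WT samples (log2 change 0.69, SE 0.0354, adjusted p = 9.29e-09). Cox8a and Cox7a2, small membrane subunits, rose by 0.66 and 0.66. Cox5a and Cox5b, which lie on the matrix side, had means of 199 ± 4.41 FPKM in Gsdmd-/- and 148 ± 2.42 FPKM in WT macrophages, and 219 ± 8.25 FPKM in Gsdmd-/- and 141 ± 9.83 FPKM in WT macrophages (SD, n = 3 each). Their log2 changes were 0.42 and 0.63.

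With the trend removed, 3 of the 13 members of complex IV rose and 2 fell, beside 29.3% of all tested genes that rose and 30.9% that fell. Cox5b (0.25, adjusted p = 2.13e-04), Cox7b (0.21, adjusted p = 3.83e-04) and Cox6b1 (0.091, adjusted p = 0.00358) rose. Cox8a fell (-0.088, adjusted p = 0.00383), as did Cox6a2 (-0.21, adjusted p = 0.0464), and Cox4i1 did not pass (0.045, adjusted p = 0.176). With lengths from all coding transcripts 11 rose and 0 fell, with Cox8a among those that rose (0.20, adjusted p = 4.58e-05) and Cox6a2 not called (0.052, adjusted p = 0.613). No test compared complex IV with the others.

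The isoforms of complex IV typical of other tissues were far below their common partners in both groups. Cox4i2, the lung isoform, had 0.490, 0.420 and 0.490 FPKM in the Gsdmd-/- samples, against 0.280, 0.220 and 0.280 FPKM in the WT samples, and Cox6b2, the testis isoform, 0.340, 0.470 and 0.800 against 0.210, 0.120 and 0.210 FPKM, and neither was tested. Per length, Cox4i1 made up 99.9% of the Cox4i pair and Cox6b1 99.8% in Gsdmd-/- and 99.9% in WT of the Cox6b pair. The heart and muscle isoforms Cox6a2 and Cox7a1 were at 3.28 and 4.67 FPKM in Gsdmd-/- and 2.35 and 2.84 FPKM in WT macrophages, above 1 FPKM in every sample, and both rose (log2 change 0.36 and 0.58, adjusted p = 0.00383 and 6.61e-04). Cox6a2 made up 0.651% ± 0.0460 of the Cox6a pair in Gsdmd-/- and 0.751% ± 0.105 in WT, and Cox7a1 4.97% ± 0.178 and 4.73% ± 0.829 of its pair with Cox7a2 (SD, n = 3 each). The Cox6a and Cox7a shares overlapped between groups (exact permutation test, two-sided, p = 0.3 and 0.8), and the Cox6b shares did not (p = 0.1), where 0.1 is the smallest p that 3 samples against 3 allow. Cox7a2l, a paralogue that takes part in joining complexes III and IV, averaged 92.3 ± 3.48 FPKM in Gsdmd-/- and 69.9 ± 1.24 FPKM in WT macrophages (SD, n = 3 each), and its groups did not overlap (log2 change 0.40, adjusted p = 6.36e-07 in limma).

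In complex V, ATP synthase, 15 of 17 members rose and 0 fell, with a median log2 change of 0.55. In the F1 head and central stalk all 5 members rose, but unequally. The alpha and beta subunits form the catalytic hexamer. Atp5a1 had 182, 179.9 and 179 FPKM in the Gsdmd-/- samples, against 169, 174 and 172 FPKM in the WT samples, and Atp5b had 360.1, 356 and 343 FPKM in the Gsdmd-/- samples, against 298, 295 and 296 FPKM in the WT samples. Their groups did not overlap, with log2 changes of 0.072 (SE 0.0264, adjusted p = 0.025) and 0.25 (SE 0.0267, adjusted p = 3.60e-06). The call of Atp5a1 was lost without Gsdmd-/- replicate 1 (adjusted p = 0.0930) or 2 (0.0540) and without WT replicate 1 (0.0949) or 3 (0.0685), and in TPM Atp5a1 fell (-0.15, adjusted p = 1.54e-04). Atp5b was not called in TPM (0.028, adjusted p = 0.339), after quantile normalization (0.0028, adjusted p = 0.922) or with the trend removed (0.044, adjusted p = 0.0915). As deposited, the subunits of the stalk that turns inside the head rose more. Atp5c1, the gamma subunit, had 143, 142 and 138 FPKM in the Gsdmd-/- samples, against 102, 104 and 105 FPKM in the WT samples (log2 change 0.44). Atp5d (delta) and Atp5e (epsilon) rose by 0.78 and 0.85, and Atp5e had 162, 165 and 152 FPKM in the Gsdmd-/- samples, against 82.5, 95.05 and 88.2 FPKM in the WT samples. The transcripts of Atp5c1, Atp5d and Atp5e had 1450.5, 931 and 421 bases, against 2471 for Atp5a1 and 1916 for Atp5b. With the trend removed Atp5c1, Atp5d and Atp5e rose by 0.21, 0.13 and 0.13, and Atp5a1 was not called (0.0080).

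The peripheral stalk, which holds the head still, was also uneven. Atp5o, the subunit that grips the top of the head, had 195, 202 and 193 FPKM in the Gsdmd-/- samples, against 109, 115 and 113 FPKM in the WT samples (log2 change 0.81, SE 0.0300, adjusted p = 1.23e-09). Atp5h and Atp5j rose by 0.55 and 0.48. Atp5f1, the long b subunit that spans the stalk, had 91.5, 93.1 and 92.8 FPKM in the Gsdmd-/- samples, against 95.3, 93.5 and 93.0 FPKM in the WT samples, with every Gsdmd-/- sample inside or below the WT range (log2 change -0.023, SE 0.0283, adjusted p = 0.472). With the trend removed, Atp5o rose (0.26), Atp5f1 fell (-0.22, adjusted p = 1.81e-05) and Atp5j fell (-0.082, adjusted p = 0.0314). With lengths from all coding transcripts Atp5o rose (0.44), Atp5f1 was not called (-0.040, adjusted p = 0.171) and Atp5j rose (0.23, adjusted p = 1.56e-05). Atp5f1 also fell in TPM (-0.24, adjusted p = 6.15e-06) and after quantile normalization (-0.14, adjusted p = 8.51e-04). The small membrane subunits Atp5j2, Atp5k, Atp5l and Atp5mpl all rose as deposited, by 0.72, 0.85, 0.64 and 0.39. With the trend removed Atp5j2 and Atp5l rose (0.33 and 0.18). Atp5k and Atp5mpl were then not called (0.14 and -0.0080, adjusted p = 0.0509 and 0.895 in limma). Atp5s, a coupling factor gene counted by its symbol, was near 1 FPKM in both groups and did not pass (log2 change -0.080, adjusted p = 0.581).

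The proton-carrying ring of complex V is built of subunit c, which 3 genes encode with the same mature protein and different import signals. All 3 were higher in every Gsdmd-/- sample. Atp5g1 had 170.0, 179.9 and 155 FPKM in the Gsdmd-/- samples, against 97.5, 105 and 106 FPKM in the WT samples (log2 change 0.70), Atp5g2 rose by 0.60 to 262 FPKM, against 172 FPKM in WT, and Atp5g3 rose by 0.47 to 144 FPKM, against 103 FPKM in WT. Of their summed FPKM, Atp5g1 made up 29.1%, 30.8% and 28.0% in the Gsdmd-/- samples, against 25.9%, 27.7% and 27.9% in WT. Atp5g3 made up 24.7%, 24.6% and 25.9% in Gsdmd-/-, against 27.9%, 27.5% and 26.7% in WT, and Atp5g2 45.6% ± 0.912 and 45.5% ± 0.713 (SD, n = 3 each). For Atp5g1 and Atp5g3 the groups did not overlap, with p = 0.1, the smallest this design allows (exact permutation test, two-sided). Atp5g1 kept a log2 change of 0.64 with the trend removed, the largest of all members, on an annotated length of 2656 bases, and Atp5g2 (-0.049) and Atp5g3 (-0.0061) did not pass. Of the 31-base words in Atp5g2 transcripts 40.2% occur in other genes, so its level is uncertain.

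**Figure D3:**
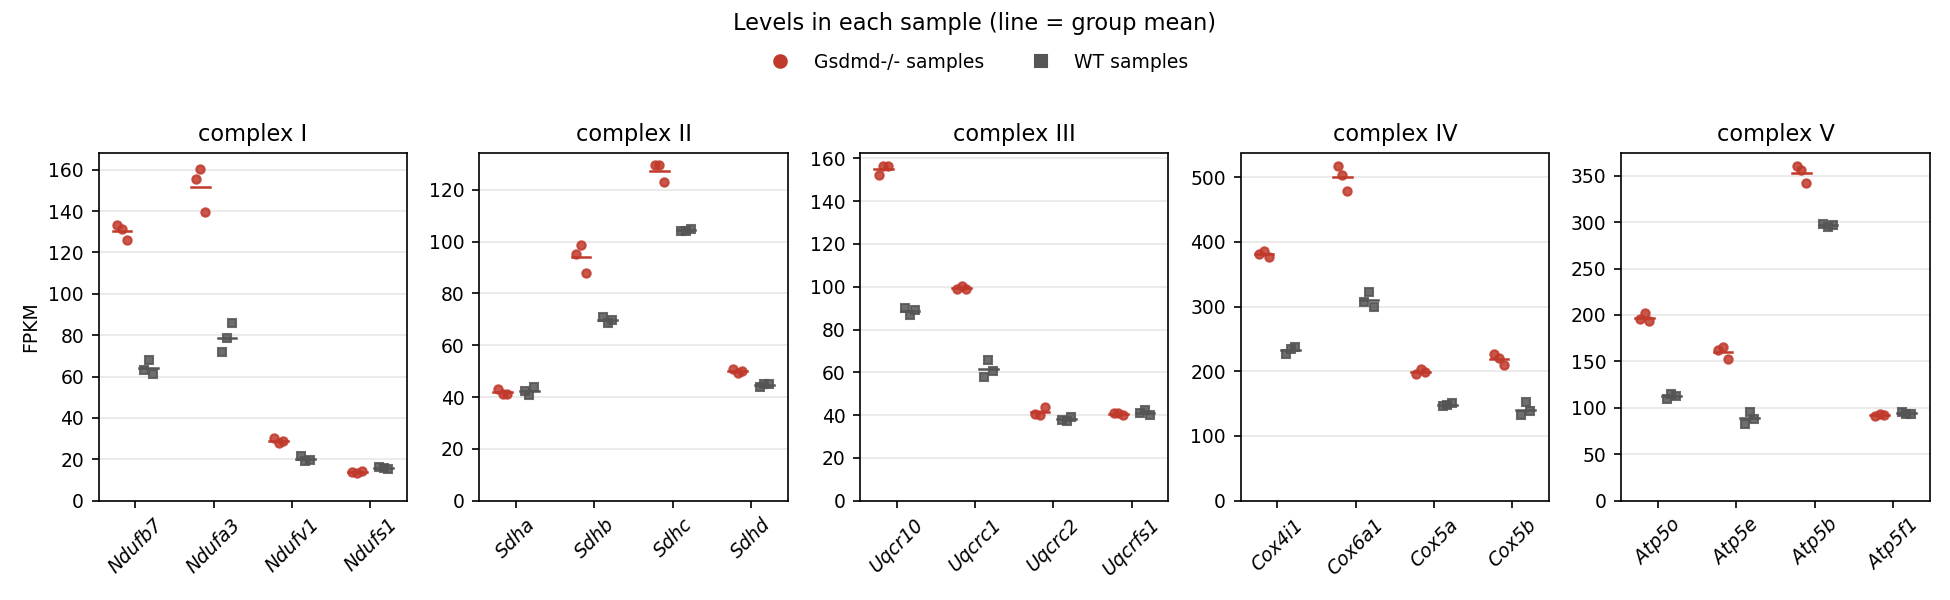
Each panel shows 4 members of a complex, with FPKM from 0 on the vertical axis, 1 point per sample (Gsdmd-/- circles on the left, WT squares on the right) and a line at the group mean (3 samples a group). Ndufb7, Uqcr10, Cox4i1 and Atp5o are well apart between groups, Atp5b and Ndufv1 are apart by less, and Sdha, Uqcrfs1 and Atp5f1 overlap or touch.

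Several members share sequence or ground with other genes. In GENCODE M21, 15 of 81 members with transcripts there have over 20% of their 31-base words in another gene, with Atp5l (69.7%), Uqcrb (54.3%) and Ndufs3 (49.3%) highest, and 33 have none. Exons of 26 members overlap a gene on the other strand, and the sources used here do not say whether counting used strand. The 15 such partners that were tested moved both ways, 7 up and 3 down (median log2 change 0.13), beside 40.6% of all tested genes that rose and 36.9% that fell. Atp5j and Gabpa overlap on opposite strands and moved in opposite directions as deposited. Atp5j rose by 0.48, and Gabpa, the ETS factor gene, had 5.42, 4.97 and 5.03 FPKM in the Gsdmd-/- samples, against 9.19, 8.86 and 8.74 FPKM in the WT samples (log2 change -0.69, adjusted p = 3.04e-07). After removal of the trend both genes fell, Atp5j at -0.082 and Gabpa at -0.17 (limma, adjusted p = 0.0314 and 0.0157). Lengths from all coding transcripts put them apart again, at 0.23 and -0.27. In GRCm38.p6 Ndufb7 lies on chromosome 8 at 83566758 to 83571623, Cox4i1 on chromosome 8 at 120668225 to 120674209, Ndufs1 on chromosome 1 at 63143592 to 63176822 and Atp5o on chromosome 16 at 91925223 to 91931630.

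Other mitochondrial genes gave a mixed picture. Beside the counts below, 40.6% of all tested genes rose and 36.9% fell as deposited. With the trend removed these shares were 29.3% and 30.9%. Genes of protein import, which carries these subunits into the organelle, rose in 24 of 27 tested cases and fell in 1 (median log2 change 0.38), and in 18 with 1 that fell once the trend was removed (median 0.20). Pam16, Timm13 and Tomm7 of the import channels rose by 0.85, 0.79 and 0.67, with 0.15, 0.25 and 0.49 after removal of the trend. Assembly factors of the complexes rose in 29 and fell in 7 of 47 (median 0.27), and in 10 and 9 with the trend removed. Uqcc2, of complex III assembly, rose by 0.76, Cox17, which brings copper to complex IV, by 0.45, and Coa5 of complex IV assembly fell by 0.58 on the log2 scale. Uqcc2 and Cox17 were not called with the trend removed (-0.014 and -0.060, adjusted p = 0.79 and 0.271), and Coa5 fell (-0.29, adjusted p = 5.07e-06). Of genes that shape the inner membrane 8 of 10 rose and 1 fell, with Phb, Minos1 and Phb2 at 0.64, 0.72 and 0.44. Of the 10 genes 4 rose and 1 fell once the trend was removed, at 0.30 for Phb, 0.65 for Minos1 and -0.044, not called, for Phb2 (adjusted p = 0.199).

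Genes that feed or sit beside the chain moved less uniformly. Of electron carriers and subunits with symbols outside the rule 13 of 21 rose and 2 fell as deposited (median 0.31). Taking the trend out left 7 that rose and 4 that fell, at a median of 0.017. Across all tested genes 29.3% rose and 30.9% fell on that scale. Lengths from all coding transcripts gave 10 and 2 for this list, at a median of 0.22. Etfb, of the flavoprotein that brings electrons from fatty acid oxidation, had 63.6, 67.5 and 62.3 FPKM in the Gsdmd-/- samples, against 36.1, 36.7 and 37.1 FPKM in the WT samples (log2 change 0.80, 0.19 with the trend removed). Atpif1, an inhibitor of ATP synthase, rose by 0.55 and did not pass with the trend removed (-0.067), and Nnt, the proton-driven transhydrogenase, had 8.62, 8.45 and 8.63 FPKM in the Gsdmd-/- samples, against 5.17, 5.03 and 5.0 FPKM in the WT samples (0.66 and 0.79). Cycs, cytochrome c, chosen for its place in the chain, had 70.4, 72.3 and 70.2 FPKM in the Gsdmd-/- samples, against 65.0, 64.8 and 62.4 FPKM in the WT samples (log2 change 0.14, but -0.075 in TPM, adjusted p = 0.0635), and rose with the trend removed (0.46, adjusted p = 5.14e-07, and 0.54 with lengths from all coding transcripts). Pyruvate dehydrogenase and tricarboxylic acid cycle genes rose in 7 and fell in 5 of 18 as deposited, with a median of -0.03. Taking the trend out gave 7 and 4, at a median of 0.034. Lengths from all coding transcripts gave 8 and 2, at a median of 0.047. Mdh2, Fh1 and Idh3b rose by 0.74, 0.63 and 0.39 as deposited, and by 0.32, 0.68 and 0.10 after removal of the trend.

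Few of the regulators known to drive transcription of these subunits rose. Of 13 tested biogenesis regulators 1 rose and 4 fell (median -0.11), and 2 rose and 4 fell with the trend removed. Of all tested genes 40.6% rose and 36.9% fell as deposited, and 29.3% rose and 30.9% fell with the trend removed. Gabpa fell as given above, by less with the trend removed (-0.17, adjusted p = 0.0157). Yy1 had 10.5, 9.95 and 9.62 FPKM in the Gsdmd-/- samples, against 14.9, 14.5 and 15.7 FPKM in the WT samples (log2 change -0.54, adjusted p = 1.37e-06), with -0.20 once the length and GC trend was removed (adjusted p = 0.00648) and -0.12, not called, with the length trend alone removed (adjusted p = 0.0593). Gabpb2, a partner of Gabpa, fell by 0.54, but not with the trend removed (0.018). Nrf1, outside the rule for named genes and given because its site was searched in the promoters, had 6.49, 6.39 and 7.04 FPKM in the Gsdmd-/- samples, against 7.07, 6.89 and 6.58 FPKM in the WT samples (log2 change -0.039, adjusted p = 0.552), and fell in TPM (-0.25, adjusted p = 0.00425). Ppargc1a and Ppargc1b stayed under the filter, at means of 0.050 and 0.457 FPKM in Gsdmd-/- and 0.0433 and 0.667 FPKM in WT samples. The regulators have long transcripts, with a median of 3755 bases. In TPM, 0 regulators rose and 9 fell, 18 protein import genes rose and 3 fell, 19 assembly factors rose and 11 fell, and 6 genes of the pyruvate dehydrogenase and tricarboxylic acid cycle list rose and 11 fell. Of all tested genes 25% rose and 51% fell in TPM.

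**Figure D4:**
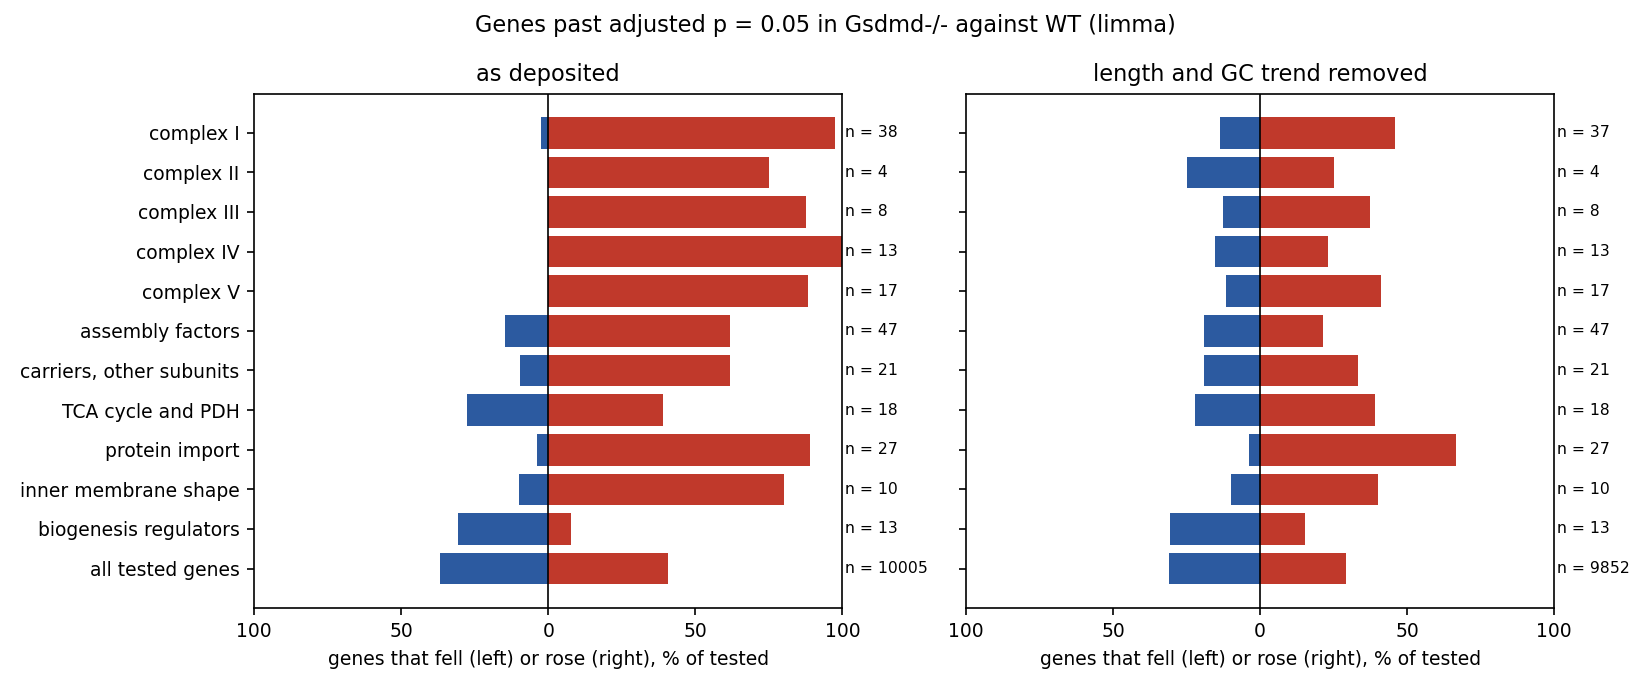
Bars give the percentage of tested genes of each complex or list that rose (right, red) or fell (left, blue) in Gsdmd-/- against WT (limma, adjusted p under 0.05), as deposited on the left and after removal of the length and GC trend on the right, with the number tested at the edge. As deposited the bars of complexes I, III, IV and V and of protein import reach far right of the bar of all tested genes, and with the trend removed protein import keeps the longest bar (18 of 27).

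Markers of other cell types gave the following levels beside these results. Their counts stand beside 40.6% of all tested genes that rose and 36.9% that fell as deposited. Those shares were 29.3% and 30.9% after removal of the trend. The fibroblast list (10 of 10 genes in the tables, 8 tested) rose in 8 of 8, with summed levels of 93.9 to 95.3 FPKM in Gsdmd-/- and 34.4 to 36.1 FPKM in WT samples, led by Bgn (33.0 FPKM in Gsdmd-/- and 11.2 FPKM in WT), Sparc (14.2 FPKM in Gsdmd-/- and 5.16 FPKM in WT), Col1a1 (13.4 FPKM in Gsdmd-/- and 4.36 FPKM in WT) and Dcn (11.4 FPKM in Gsdmd-/- and 5.38 FPKM in WT). All 8 also rose with the trend removed, and 7 rose and 0 fell with lengths from all coding transcripts. Pdgfra and Lum stayed below 0.4 FPKM in every sample. Smooth muscle genes summed to 11.7 to 12.9 against 2.15 to 4.10 FPKM, from Acta2 (at least 7.11 FPKM in Gsdmd-/- and at most 2.85 FPKM in WT samples, log2 change 1.46, adjusted p = 4.38e-06) and Tagln (3.93 FPKM in Gsdmd-/- and 0.860 FPKM in WT, log2 change 1.46, adjusted p = 0.00101), with Myh11, Des and Cnn1 below 0.1 FPKM. Epithelial genes (6 of 12 in the tables) summed to 2.12 to 2.34 against 3.13 to 3.57 FPKM, nearly all of it Cdh1, with Krt8 at 0 in 5 of 6 samples. Striated muscle genes stayed below 1 FPKM in sum, T and B cell genes summed to 2.65 to 3.02 against 1.64 to 1.88 FPKM, and neutrophil genes to 4.34 to 6.65 against 2.71 to 4.02 FPKM, with Ly6g at 0 in 5 of 6 samples. Proliferation genes rose in 8 and fell in 1 of 12 as deposited, with sums of 502 to 524 FPKM in Gsdmd-/- and 406 to 409 FPKM in WT samples. With the trend removed 10 of the 12 rose and 1 fell. The part of these cells in the members' change was not tested.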

How the data were processed

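The tables give 1 value per gene for each of 6 samples of sorted colon macrophages, 3 from Gsdmd-/- and 3 from WT mice. The deposited values carry no unit in their header and were read as FPKM, because the smallest differences between low values shrink as transcripts get longer. Per the submitters' processing notes Bowtie2 2.2.5 and GRCm38.p6 were used, and for the counting tool, annotation and strand setting the sources used here give nothing. Depth was estimated from the low steps at 19040000 to 19740000 fragments a sample.

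Values were taken as log2(FPKM + 1), genes were kept that reached 1 FPKM in 3 or more of the 6 samples, and the groups were compared with limma 3.58.1 in R 4.3.3 (trend and robust, two-sided) with Benjamini-Hochberg adjustment over all 10005 genes and a threshold of 0.05. Fold changes on this scale understate the change of low genes. For the alternative without a length and GC trend, a spline with 5 degrees of freedom on log2 length and on GC was fitted in each sample and subtracted, with lengths of RefSeq-linked coding transcripts of GENCODE M21. Other alternatives changed the pseudocount, the filter, the scaling, the fit, the replicate block and the samples left out.

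The members and the gene lists were chosen with earlier results of these data known. The rule for named genes took, in each complex, the 4 members with the largest called change as deposited and with the trend removed, those that fell, those called in opposite directions, fixed catalytic, core and isoform genes, and the 3 genes of each pathway list with the smallest p. A member that the rule names is included in the counts and is not reported here by name. Other genes named in the text were picked for their role after their values were seen. The scripts were tested on made-up data with known changes. The NRF1 letters searched in the promoters were shortened from a longer form of the site after the matches of the longer form had been seen.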

Additional observations from a re-analysis of the deposited data

How the results depend on the processing

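The counts of members that rose moved most when a length trend was removed, to between 31 and 40, unless lengths came from all coding transcripts. Leaving out 1 sample at a time gave 73 to 74 members that rose and 1 that fell, medians of 0.56 to 0.61, and 78 to 83 pathway list genes called, against 82 with all samples. The sign of Uqcrfs1 turned without WT replicate 2 (0.00066, and -0.033 without WT replicate 3) and that of Sdha without WT replicate 3 (0.010, and -0.043 without WT replicate 2), none past the threshold. In TPM 67 members rose and 5 fell (35 and 1 in complex I, 1 and 1 in complex II, 6 and 1 in complex III, 12 and 0 in complex IV, 13 and 2 in complex V), with a median of 0.37 and 56 pathway list genes called, and the log2 changes that changed sign were Sdhd -0.059, Uqcrc2 -0.10 and Atp5a1 -0.15. After quantile normalization 71 members rose and 2 fell (37 and 1 in complex I, 2 and 0 in complex II, 6 and 0 in complex III, 13 and 0 in complex IV, 13 and 1 in complex V), with a median of 0.45 and 88 pathway list genes called, with Atp5a1 at -0.045. After removal of the length and GC trend 31 members rose and 11 fell (17 and 5 in complex I, 1 and 1 in complex II, 3 and 1 in complex III, 3 and 2 in complex IV, 7 and 2 in complex V), with a median of 0.053 and 48 pathway list genes called, and these changed sign: Ndufa6 -0.20, Ndufa7 -0.15, Ndufb4 -0.19, Ndufc1 -0.14, Sdhb -0.063, Sdhd -0.13, Uqcr11 -0.053, Cox6a1 -0.055, Cox8a -0.088, Cox6a2 -0.21, Atp5j -0.082, Sdha 0.053, Cox5a -0.032, Atp5g2 -0.049, Atp5g3 -0.0061, Cox7a1 -0.15, Uqcc2 -0.014, Cox17 -0.060, Atpif1 -0.067, Gabpb2 0.018 and Phb2 -0.044. With the length trend alone removed, 40 members rose and 14 fell (21 and 6 in complex I, 1 and 1 in complex II, 4 and 2 in complex III, 5 and 2 in complex IV, 9 and 3 in complex V), with a median of 0.087 and 54 pathway list genes called, and these changed sign: Ndufa6 -0.14, Ndufa7 -0.042, Ndufb4 -0.18, Ndufc1 -0.10, Sdhd -0.21, Uqcrc2 -0.077, Cox7b -0.073, Cox6a2 -0.18, Atp5j -0.029, Sdha 0.0044, Cox5a -0.12, Atp5g3 -0.053, Cox7a1 -0.034, Cox7a2l -0.016, Cox17 -0.15 and Atpif1 -0.026. With lengths from all coding transcripts, 67 members rose and 3 fell (34 and 2 in complex I, 1 and 0 in complex II, 6 and 1 in complex III, 11 and 0 in complex IV, 15 and 0 in complex V), with a median of 0.30 and 70 pathway list genes called, with Sdhc -0.0011 and Gabpb2 0.059 of changed sign. The 2 length choices give the same gene different lengths (Sdhc 3171 and 815 bases), and beyond what each alternative changes by construction the cause of these shifts was not tested. Over the named genes, 1143 of the recomputed values kept direction and call, 49 lost the call, 11 gained it and 66 changed sign.

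The labels do not say that the replicate numbers pair the samples. Deviations from the group means of same-numbered samples correlated at -0.08, 0.13 and 0.01. Those of samples with unlike numbers correlated at -0.17 to 0.16, so these values cannot show whether samples were paired. With the number as a block, 75 members rose and 1 fell, with 83 pathway list genes called. With the block and without the length and GC trend 35 members rose and 10 fell (19 and 5 in complex I, 1 and 1 in complex II, 3 and 1 in complex III, 4 and 1 in complex IV, 8 and 2 in complex V), with a median of 0.053 and 48 pathway list genes called, and the log2 values are those without the block. The FPKM tables give no counts, so counting error per gene is unknown, and members near 1 FPKM (Atp5s, Ndufa4l2) rest on few fragments.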
